A study of Mus musculus with 15 samples.

Results

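The genes described here are 36 genes of the integrated stress response in B16-F10 cells, a pigmented mouse melanoma line. They comprise the transcription factor ATF4, its partner factors, and genes that are widely described as ATF4 targets. The set was chosen with earlier results of these data known. Each was taken from the deposited table by matching its Ensembl identifier to its symbol in GENCODE M21, and all 36 were found among the 46078 genes of the table. RNA was sequenced from 15 libraries in 5 groups of 3. In 1 arm, cells received DMSO (the vehicle), GSK126 at 2 µM (which blocks the catalytic activity of the histone methyltransferase EZH2) or DZNep at 2 µM (3-deazaneplanocin A, an inhibitor of S-adenosylhomocysteine hydrolase). In a parallel arm, cells were given either an siRNA targeting Ezh2 (siEzh2) or a scrambled control (scr). The labels name no engineered allele. Sample titles read B16 in the DZNep group and B16-F10 in the other groups, and all groups are treated here as 1 cell line. No source used here gives treatment times or siRNA sequences, and no label ties replicates to separate cultures, so p-values measure the spread between these libraries, which may be technical.

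In the integrated stress response, kinases that sense amino acid shortage, haem shortage, viral RNA or endoplasmic reticulum stress phosphorylate the translation factor eIF2. Most translation then slows, while the mRNA of ATF4 is translated more. ATF4 pairs with C/EBP proteins and switches on genes for amino acid synthesis, amino acid uptake and tRNA charging, together with regulators that can lead to cell death when stress lasts. Because ATF4 is set largely at the level of translation, the amount of its mRNA alone is an incomplete readout. Melanoma cells are known to use this pathway under nutrient limitation.

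ATF4 and C/EBP partners bind a composite DNA element, the C/EBP-ATF response element. Its core, TGATGCAA, was searched on both strands in the RefSeq promoter windows (GRCm38.p6) of the members, each running from 250 bases before to 50 bases after an annotated start. A window was found for 30 of the 36 members. The core, in either orientation, lay in 8 of these 30 genes (26.7%), and in 1.03% of all 27025 genes of the promoter table. With any base at position 6 (TGATGNAA, which includes every match of the core) it lay in 12 of 30 (40.0%), against 4.51% of all genes. The palindromic cyclic AMP element TGACGTCA lay in 1 of 30 members, Ppp1r15a (3.33%), against 2.03% of all genes. The longer endoplasmic reticulum stress element, bound by ATF6 together with NF-Y, lay in 0 of 30, against 0.137% of all genes. A match describes letters only, and was not tested as a binding site. The matches upstream of the start are shown so that the letters behind these counts can be seen, and their part in any change of level was not tested. Capitals mark the matched letters, each sequence reads 5′ to 3′ on the strand of its gene, and the element reads TTGCATCA where it lies on the other strand:
Aars (chr8:111033714-111033753, plus strand): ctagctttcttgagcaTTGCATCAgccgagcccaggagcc
Atf3 (chr1:191183420-191183459, minus strand): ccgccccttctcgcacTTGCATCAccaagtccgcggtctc
Chac1 (chr2:119351033-119351072, plus strand): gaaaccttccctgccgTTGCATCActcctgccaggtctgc
Nupr1 (chr7:126625557-126625596, minus strand): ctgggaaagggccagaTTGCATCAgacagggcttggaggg
Pycr1 (chr11:120643828-120643867, minus strand): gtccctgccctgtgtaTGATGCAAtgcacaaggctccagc
Vldlr (chr19:27216804-27216843, plus strand): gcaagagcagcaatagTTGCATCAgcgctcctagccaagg
Asns (chr6:7693210-7693248, minus strand): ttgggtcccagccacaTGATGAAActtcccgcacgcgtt
Gars (chr6:55037955-55037994, plus strand): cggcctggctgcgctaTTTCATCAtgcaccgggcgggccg
Pck2 (chr14:55540147-55540186, plus strand): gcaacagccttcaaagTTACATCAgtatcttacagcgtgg

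In the first 6 of these sequences the full core is present, and in Asns, Gars and Pck2 only the looser form. The cores of Iars and Yars, and the looser match of Trib3, lie after the start and are not shown. The other 18 members searched had no match to either form.

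Total counts per library lay between 33299524 and 64545747, so that 1 count was worth between 0.0154 and 0.0306 CPM (counts relative to a library size scaled by the TMM method). Ezh2 stood at 37.6 to 41.3 CPM in the siEzh2 libraries at 204 to 227 CPM with DMSO, GSK126 and scr, and at 150 to 160 CPM with DZNep, below DMSO (log2 -0.41, adjusted p = 3.67e-07). The 10 melanocyte markers examined were detected in every library, and their summed level was 19100 to 25850 CPM. Among 9 fibroblast markers Thy1 had 0 counts in all 15 libraries, Col3a1 and Dcn had 5 and 3 counts over all of them, and Fbln1 had 159 to 345 CPM as group means. Of 11 blood and endothelial markers, Adgre1, Cd3e, Hba-a1, Hbb-bs and Cdh5 had 0 counts throughout, while Cd68 and Fcer1g were detected in every library. In bulk RNA a lower level per cell and fewer cells with the transcript cannot be told apart.

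Of the 36 members, 35 passed the low-count filter and were tested. The exception was Stc2, which encodes the secreted glycoprotein stanniocalcin 2. It had 0 counts in every library, which limits its level to 0.0917 CPM in the shallowest library (3 counts, counting error only). Per kilobase of exon in DMSO, Atf4 was the most abundant member at 278 CPM per kb. It was followed by the glycyl-tRNA synthetase gene Gars at 194 and by Atf5 at 175 CPM per kb. The least abundant of the tested members were Cth (3.59), Atf3 (2.90) and Cebpb (2.71 CPM per kb). Within groups the libraries lay close together. The median coefficient of variation of the 35 members was lowest with GSK126 (3.43%) and highest in DMSO (6.88%), and scr (4.53%), siEzh2 (5.41%) and DZNep (5.83%) lay between. The widest spread was that of Cebpb with DZNep (30.7%), at a mean of 0.496 CPM.

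**Figure D1:**
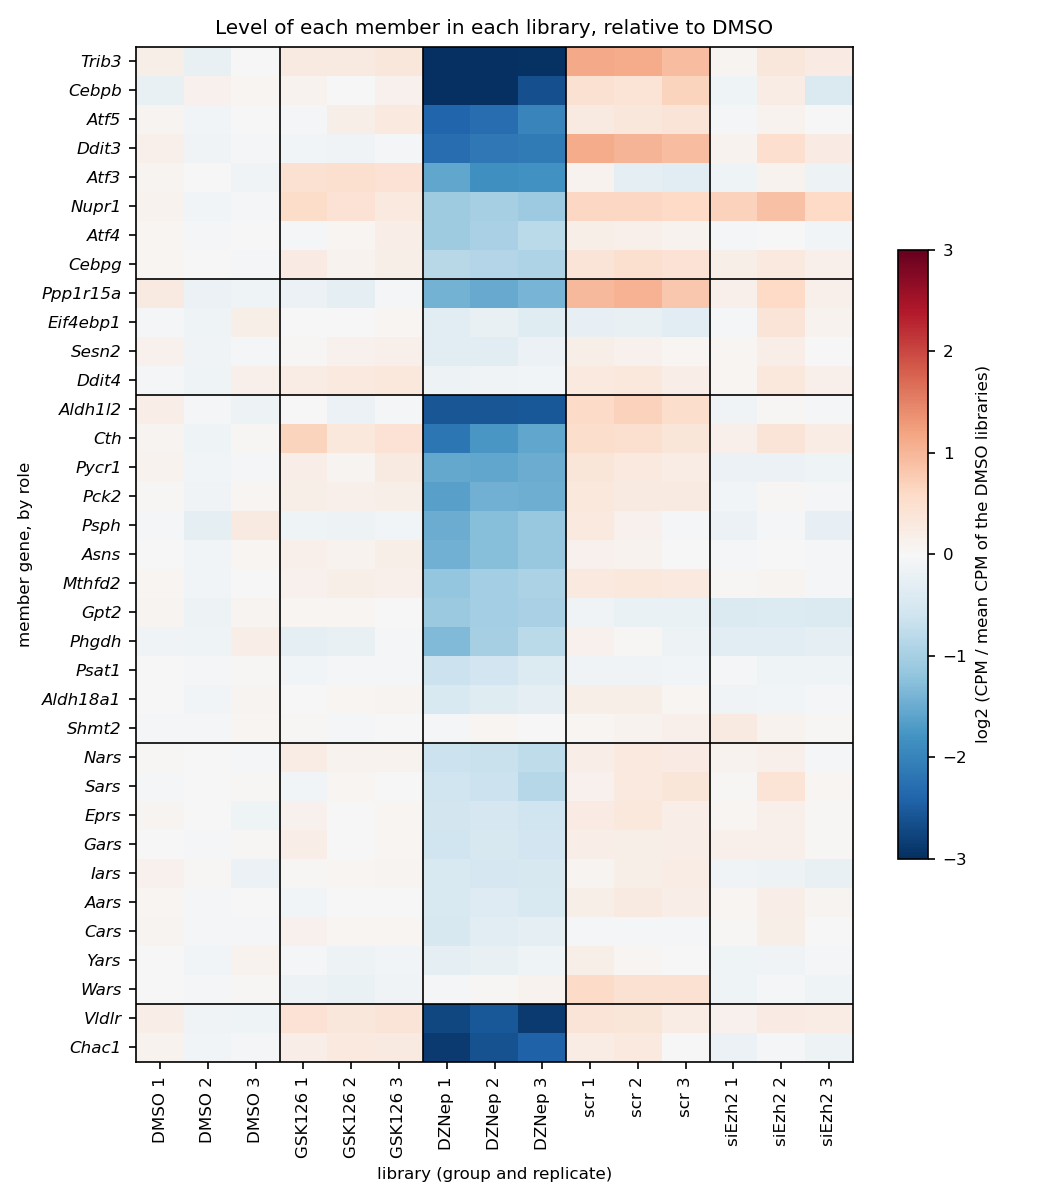
Heat map of 35 members (rows, grouped by role) in 15 libraries (columns), coloured by the log2 ratio of CPM to the mean of the 3 DMSO libraries; the colour scale saturates at 3 in either direction. The 3 DZNep columns are blue for most genes, and the scr columns are red for Trib3, Ddit3 and Ppp1r15a.

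With DZNep nearly the whole set fell. Of the 35 tested members 32 fell and 0 rose against DMSO, with a median log2 fold change of -1.03 and a range from -3.10 to 0.04. Over all 15152 genes tested, 31.0% fell and 31.2% rose (edgeR quasi-likelihood test, Benjamini-Hochberg adjusted p under 0.05), and the median was 0.00. Since the members were chosen with earlier results of these data known, this contrast is descriptive only. At an unadjusted p under 0.05, and by DESeq2, 0 members were likewise higher. The count of fallen members was 32 or 33 under each alternative fit and without any 1 library. The 3 members that were not called were Ddit4, Shmt2 and Wars. In the 32 that fell, all 3 DZNep libraries lay below all 3 DMSO libraries. The share of all genes tested that were separated in this way is not given here. The summed level of the members was 4440 to 4647 CPM with DZNep and 7249 to 7699 CPM in DMSO.

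The 8 transcription factors and regulators fell without exception, by a median log2 of -1.96. Atf4 itself (ENSMUSG00000042406, chromosome 15, 80255184 to 80257541, GRCm38) stood at 684, 627 and 651 CPM in the DMSO libraries and at 314, 333 and 373 CPM with DZNep. The ranges were far apart, and the difference was log2 -0.94 ± 0.07 (SE, adjusted p = 1.82e-10). Ddit3, which encodes the pro-apoptotic factor CHOP (ENSMUSG00000025408, chromosome 10, 127290774 to 127296288), had 52.5, 43.4 and 45.4 CPM in DMSO. With DZNep it had 9.74, 10.6 and 10.9 CPM, a 4.50-fold lower level (log2 -2.17 ± 0.10, adjusted p = 1.63e-12). Trib3, a pseudokinase that restrains ATF4 activity (ENSMUSG00000032715, chromosome 2, 152337422 to 152344032), showed the widest difference of the set. It stood at 91.8, 70.5 and 82.8 CPM in DMSO and at 8.23, 9.75 and 10.5 CPM with DZNep, which is 8.55-fold lower (log2 -3.10 ± 0.11, adjusted p = 2.68e-13). Every DZNep library held less Trib3 than every library of the other groups.

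Atf5, a factor related to ATF4 whose mRNA is also under eIF2 control (chromosome 7, 44812256 to 44816658), stood at 372, 328 and 347 CPM in DMSO. With DZNep it stood at 66.8, 71.7 and 88.2 CPM, and the fold change was log2 -2.21 ± 0.10 (adjusted p = 8.03e-12). Cebpb, a C/EBP partner of ATF4, fell from 4.07 ± 0.493 to 0.496 ± 0.152 CPM (SD, n = 3), an 8.02-fold lower level (edgeR adjusted p = 1.46e-10). The other C/EBP partner, Cebpg, fell less, by log2 0.88 ± 0.05, from 86.9 ± 3.59 to 47.2 ± 1.45 CPM. Atf3, a stress-induced repressor, fell from 6.26 ± 0.409 to 1.88 ± 0.215 CPM, and Nupr1, a small stress-induced chromatin protein, from 49.7 ± 3.69 to 24.0 ± 0.752 CPM. The fall of Atf4 mRNA was smaller in log2 terms than that of Trib3, Cebpb, Atf5, Ddit3, Atf3 and Nupr1 (log2 -1.05). It was larger than that of Cebpg. These differences between genes were not tested.

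In the feedback and translation control group 3 of 4 fell, and 1 of them by far the most. Ppp1r15a encodes GADD34, the stress-induced subunit of the phosphatase that removes the phosphate from eIF2. It stood at 46.4, 34.4 and 35.1 CPM in DMSO and at 14.4, 13.5 and 14.6 CPM with DZNep (log2 -1.45 ± 0.14, adjusted p = 4.49e-07). Eif4ebp1, a repressor of cap-dependent translation, had 131, 124 and 153 CPM in DMSO and 107, 116 and 106 CPM with DZNep. The groups lay close but did not overlap (log2 -0.31 ± 0.09, adjusted p = 0.00509). Sesn2, an inhibitor of mTORC1 signalling that is also a target of p53, had 69.0, 58.5 and 61.9 CPM in DMSO and 50.5, 50.9 and 56.0 CPM with DZNep (log2 -0.27 ± 0.07, adjusted p = 0.00151). Ddit4, another mTORC1 inhibitor, gave log2 -0.12 (adjusted p = 0.171), and was called without DMSO replicate 2 (log2 -0.18, adjusted p = 0.0465).

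Of the 12 genes of amino acid and one-carbon synthesis 11 fell, by a median log2 of -1.16. Aldh1l2, a mitochondrial enzyme of folate metabolism (chromosome 10, 83487450 to 83534140), stood at 232, 196 and 182 CPM in DMSO and at 34.4, 34.1 and 34.7 CPM with DZNep. The 3 DZNep values were nearly equal, and the level was 5.91-fold lower (log2 -2.56 ± 0.08, adjusted p = 1.88e-15). Pck2, the mitochondrial phosphoenolpyruvate carboxykinase, had 75.4, 68.0 and 77.1 CPM in DMSO and 23.6, 27.0 and 26.5 CPM with DZNep (log2 -1.52 ± 0.06, adjusted p = 2.71e-14). Pycr1, which completes proline synthesis, had 23.1, 20.3 and 21.1 CPM in DMSO and 7.41, 7.25 and 7.63 CPM with DZNep (log2 -1.53 ± 0.07, adjusted p = 4.42e-13). All 3 genes were separated from DMSO by more than the spread of either group.

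The steps of serine synthesis fell to unequal degrees. Phgdh, the first enzyme, fell from 88.4 ± 11.5 to 43.2 ± 7.54 CPM, Psat1, the next, from 264 ± 7.58 to 181 ± 15.5 CPM, and Psph, the last, from 24.7 ± 4.49 to 10.1 ± 1.24 CPM (SD, n = 3 each). Downstream, the mitochondrial folate enzyme Mthfd2 fell from 245 ± 11.2 to 119 ± 8.87 CPM, whereas Shmt2, which splits serine in the same compartment, stood at 391 ± 13.7 and 390 ± 15.4 CPM (log2 0.00, adjusted p = 0.982). Asns, the asparagine synthetase, fell from 384 ± 20.5 to 158 ± 15.9 CPM, and the alanine aminotransferase Gpt2 from 58.0 ± 5.21 to 28.4 ± 1.49 CPM. Cth, which makes cysteine from cystathionine, had 10.6, 9.20 and 10.3 CPM in DMSO and 2.24, 2.98 and 3.42 CPM with DZNep (log2 -1.78 ± 0.12, adjusted p = 1.92e-10). Aldh18a1, the first enzyme of proline synthesis, fell by only log2 0.37 ± 0.06.

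Among the 9 aminoacyl-tRNA synthetases 8 fell, with log2 fold changes from -0.69 to 0.04 and a median of -0.48. Nars, for asparagine, stood at 476, 474 and 452 CPM in DMSO and at 297, 296 and 276 CPM with DZNep (log2 -0.69 ± 0.06, adjusted p = 3.23e-09). Gars, for glycine, stood at 601, 593 and 622 CPM against 403, 436 and 406 CPM (log2 -0.55 ± 0.06, adjusted p = 4.39e-08). Eprs, for glutamate and proline, stood at 592, 566 and 512 CPM against 380, 393 and 366 CPM (log2 -0.55 ± 0.06, adjusted p = 9.37e-08). In each the groups were well apart. Sars, Iars, Aars, Cars and Yars fell by log2 0.69, 0.48, 0.44, 0.36 and 0.22. Wars, for tryptophan, which interferons also induce, had 132, 124 and 134 CPM in DMSO and 127, 133 and 140 CPM with DZNep, with overlapping groups (log2 0.04, adjusted p = 0.549).

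The last role group holds a glutathione-degrading enzyme and a lipoprotein receptor. Chac1 (chromosome 2, 119351229 to 119354381), the enzyme, had 72.6, 64.0 and 65.2 CPM in DMSO and 9.27, 11.1 and 12.6 CPM with DZNep (log2 -2.61 ± 0.10, adjusted p = 1.99e-13). Vldlr (chromosome 19, 27216484 to 27254231), the receptor, had 84.8, 67.8 and 67.5 CPM in DMSO and 11.1, 12.6 and 9.96 CPM with DZNep (log2 -2.71 ± 0.09, adjusted p = 3.98e-14). In both genes the DZNep libraries formed a narrow range far below every DMSO library.

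**Figure D2:**
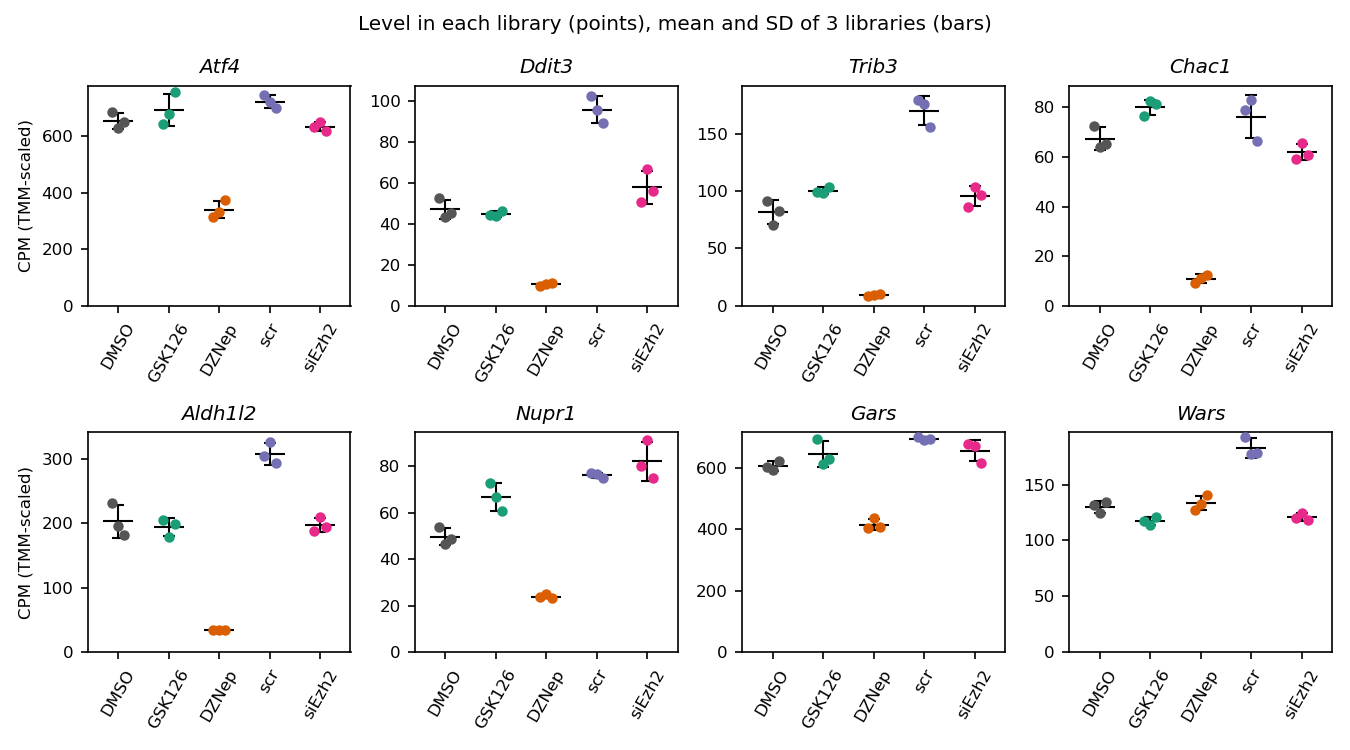
CPM of 8 members in each library (points), with the mean and SD of the 3 libraries of a group (bars); each vertical axis starts at 0. By group mean, DZNep is lowest for all except Wars, and scr is highest for Atf4, Ddit3, Trib3, Aldh1l2, Gars and Wars. For Atf4 and Gars the scr and GSK126 libraries overlap.

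Other values moved with DZNep beside these genes. The summed fibroblast markers stood at 399 to 416 CPM with DZNep and 190 to 229 CPM in DMSO, with 4 of the 5 tested markers called higher, most of it from Fbln1 (345 and 186 CPM). Postn stood at 45.8 and 6.66 CPM, Col1a2 at 5.97 and 3.18 CPM and Col1a1 at 3.999 and 0.994 CPM. Pdgfra went the other way, at 7.25 CPM with DZNep and 8.26 CPM in DMSO, and was not called. Thy1, Dcn, Col3a1 and Lum were at or near 0. The summed blood and endothelial markers were at 7.67 to 8.63 CPM against 4.24 to 4.81 CPM. The summed melanocyte markers were at 22330 to 22720 CPM with DZNep, below the 25530 to 25850 CPM of DMSO, with 4 of 10 called higher and 3 lower. Over all genes tested 31.2% were called higher and 31.0% lower. Mitochondrially encoded transcripts took 6.17% to 8.40% of counts with DZNep and 8.36% to 9.27% in DMSO. Their part in the result was not tested.

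Genes of the same pathway outside the set were compared from further lists. These lists were drawn up with earlier results of these data known. Among 22 tested further ATF4 targets, among them amino acid transporters, 18 fell and 3 rose with DZNep, with a median log2 of -0.66. Of all genes tested 31.0% fell and 31.2% rose. The neutral amino acid transporter Slc1a4 fell 3.18-fold, from 73.6 ± 3.91 to 23.1 ± 2.66 CPM, and the glycine transporter Slc6a9 fell 2.16-fold, from 53.0 ± 1.80 to 24.5 ± 0.882 CPM (SD, n = 3). The pseudokinase gene Trib1 rose from 17.3 ± 0.867 to 52.1 ± 1.58 CPM, and the cationic amino acid transporter Slc7a3 from 0.430 ± 0.0892 to 1.62 ± 0.530 CPM. The third gene that rose was Mars, named after its value was seen (log2 0.20 ± 0.06, adjusted p = 0.00661). Mars overlaps Ddit3 by 68 exon bases on the other strand, and 3 synthetase genes (Lars, Mars and Tars) stand in both this and the next list.

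The remaining lists were mixed with DZNep, and 31.2% of all genes tested rose and 31.0% fell. Of 11 cytosolic tRNA synthetases outside the members 7 fell, among them Lars (1.96-fold) and Dars (1.36-fold), and 4 rose, among them Hars (1.33-fold) and Farsa (1.28-fold). Of 17 mitochondrial synthetases 7 rose and 4 fell, led by Cars2 (2.14-fold higher) and Rars2 (1.57-fold lower). One-carbon and serine genes had 6 of 13 higher, among them the thymidylate synthase Tyms (1.56-fold), and 4 lower, led by the serine racemase Srr (2.52-fold). Of 10 proline, asparagine and alanine genes 6 rose, led by the alanine aminotransferase Gpt (3.10-fold). The list of bZIP partners (5 of 15 higher and 5 lower) had a median log2 of 0.11.

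Upstream, the eIF2 kinases and their activators had 4 of 9 genes higher and 1 lower with DZNep. The counts here stand beside 31.2% of all genes higher and 31.0% lower. The amino acid sensor kinase Eif2ak4 (GCN2) rose from 28.4 ± 0.468 to 38.7 ± 0.943 CPM, and Abcf3, a member of the ABCF ATPase family, from 33.3 ± 2.62 to 46.2 ± 0.587 CPM. Eif2ak2, the kinase activated by double-stranded RNA, fell from 81.9 ± 4.73 to 65.6 ± 3.22 CPM. Of 14 genes of eIF2, its exchange factor eIF2B and its phosphatase, 5 rose and 4 fell. The ATF6 and XBP1 branch of the unfolded protein response had 8 of 15 genes higher and 3 lower. Its calcium-binding chaperone Calr rose 2.05-fold, from 1214 ± 82.9 to 2488 ± 63.4 CPM, and the disulfide isomerase Pdia4 rose 1.84-fold. Ern1, which encodes the sensor IRE1, fell 1.62-fold. These counts concern mRNA only, and phosphorylation of eIF2 was not measured.

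**Figure D3:**
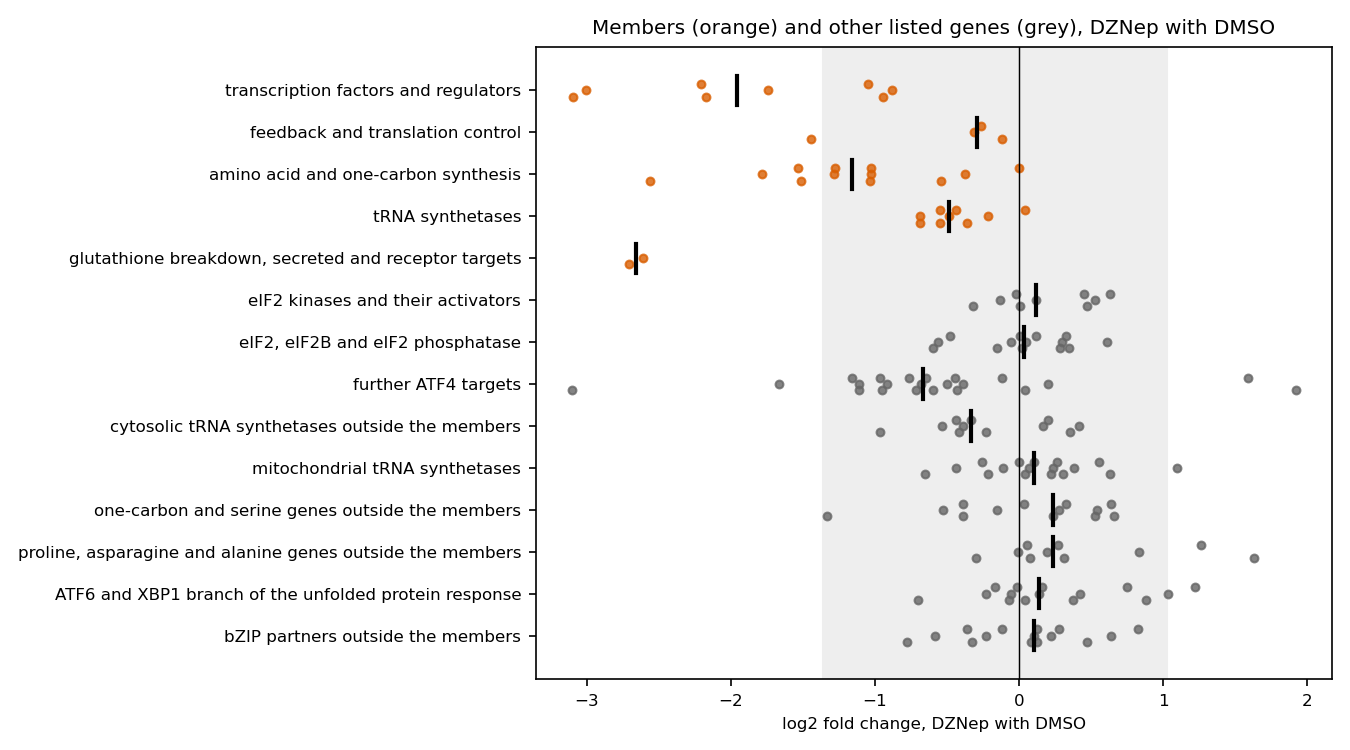
Log2 fold change of each gene (points) between DZNep and DMSO, by list, with the list's median (black bar); the grey band spans the 5th to 95th percentile of all genes tested, from -1.36 to 1.02, and the vertical line is their median. The medians of the 5 member groups lie between -2.66 and -0.29, and among the other lists the further ATF4 targets (-0.66) lie lowest.

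With GSK126 most members were not called, and those called were higher. Of the 35, 8 rose (22.9%) and 0 fell, with a median log2 of 0.08 and a range from -0.18 to 0.48. Of all genes 7.15% rose and 5.54% fell. At an unadjusted p under 0.05 13 members were higher and 1 lower, and DESeq2 called 10 higher and 0 lower. With no count filter 1 member, Phgdh, was called lower (log2 -0.19, adjusted p = 0.0358). Nupr1 stood at 73.0, 66.7 and 60.6 CPM with GSK126, all above the 53.8, 46.7 and 48.6 CPM of DMSO (log2 0.43 ± 0.07, adjusted p = 0.000492). Vldlr stood at 98.9, 93.4 and 96.2 CPM against 84.8, 67.8 and 67.5 CPM (log2 0.39 ± 0.08, adjusted p = 0.00358). Cth stood at 15.9, 12.6 and 13.6 CPM against 10.6, 9.20 and 10.3 CPM (log2 0.48 ± 0.10, adjusted p = 0.00408). These groups did not overlap, although Cth was spread widely among the GSK126 libraries. Atf3, at a low level, rose from 6.26 ± 0.409 to 8.61 ± 0.183 CPM (log2 0.46, adjusted p = 0.00665). These 4 calls held under all alternatives and without any 1 library.

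The other 4 increases with GSK126 were less firm. They were Trib3 (log2 0.30, adjusted p = 0.0427), Ddit4 (0.27, adjusted p = 0.0166), Cebpg (0.18, adjusted p = 0.035) and Pck2 (0.17, adjusted p = 0.0448). The Trib3 call was lost without DMSO replicate 2 or 3 or any 1 GSK126 library (adjusted p = 0.0822 to 0.137). The Pck2 call was lost without DMSO replicate 2 or any 1 GSK126 library (adjusted p = 0.0959 to 0.189). Cebpg was lost without DMSO replicate 2 or 3 or GSK126 replicate 1 or 3 (adjusted p = 0.083 to 0.162), and Ddit4 without DMSO replicate 2 or GSK126 replicate 2 or 3 (adjusted p = 0.0594 to 0.0839). The count of increases was 4 without DMSO replicate 2, 5 without GSK126 replicate 1, and 4 without GSK126 replicate 3. GSK126 replicate 1 carries a sample number (S) of 3 in its label, next to those of the siRNA arm, apart from the other libraries of its own arm.

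Atf4 and Ddit3 were not called with GSK126. Atf4 stood at 642, 677 and 755 CPM (log2 0.08 ± 0.06, adjusted p = 0.467) and Ddit3 at 44.4, 43.8 and 46.2 CPM (log2 -0.07 ± 0.09, adjusted p = 0.645), and both overlapped DMSO. Of the 9 synthetases edgeR called 0 and DESeq2 called 0, and at an unadjusted p under 0.05 Nars was higher and Wars lower (adjusted p = 0.107 and 0.0696). Further ATF4 targets had 4 of 22 higher, whereas the ATF6 and XBP1 branch had 7 of 15 lower. Of all genes 7.15% were higher and 5.54% lower with GSK126. The summed melanocyte markers were 21600 to 21980 CPM with GSK126, below all DMSO libraries, with 5 of 10 called lower, and their part in the result was not tested.

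Set directly against GSK126 at the same 2 µM, DZNep gave 32 members lower and 1 higher, beside 31.7% of all genes lower and 32.9% higher. The median log2 was -1.06. Vldlr differed by log2 -3.10 ± 0.09 (adjusted p = 5.42e-15) and Trib3 by -3.39 ± 0.11 (adjusted p = 6.71e-14). Wars was the member that was higher (0.18 ± 0.05, adjusted p = 0.00422). For Shmt2 the difference was 0.00 ± 0.06 (adjusted p = 0.981), and for Yars it was -0.13 ± 0.06 (adjusted p = 0.0569).

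**Figure D4:**
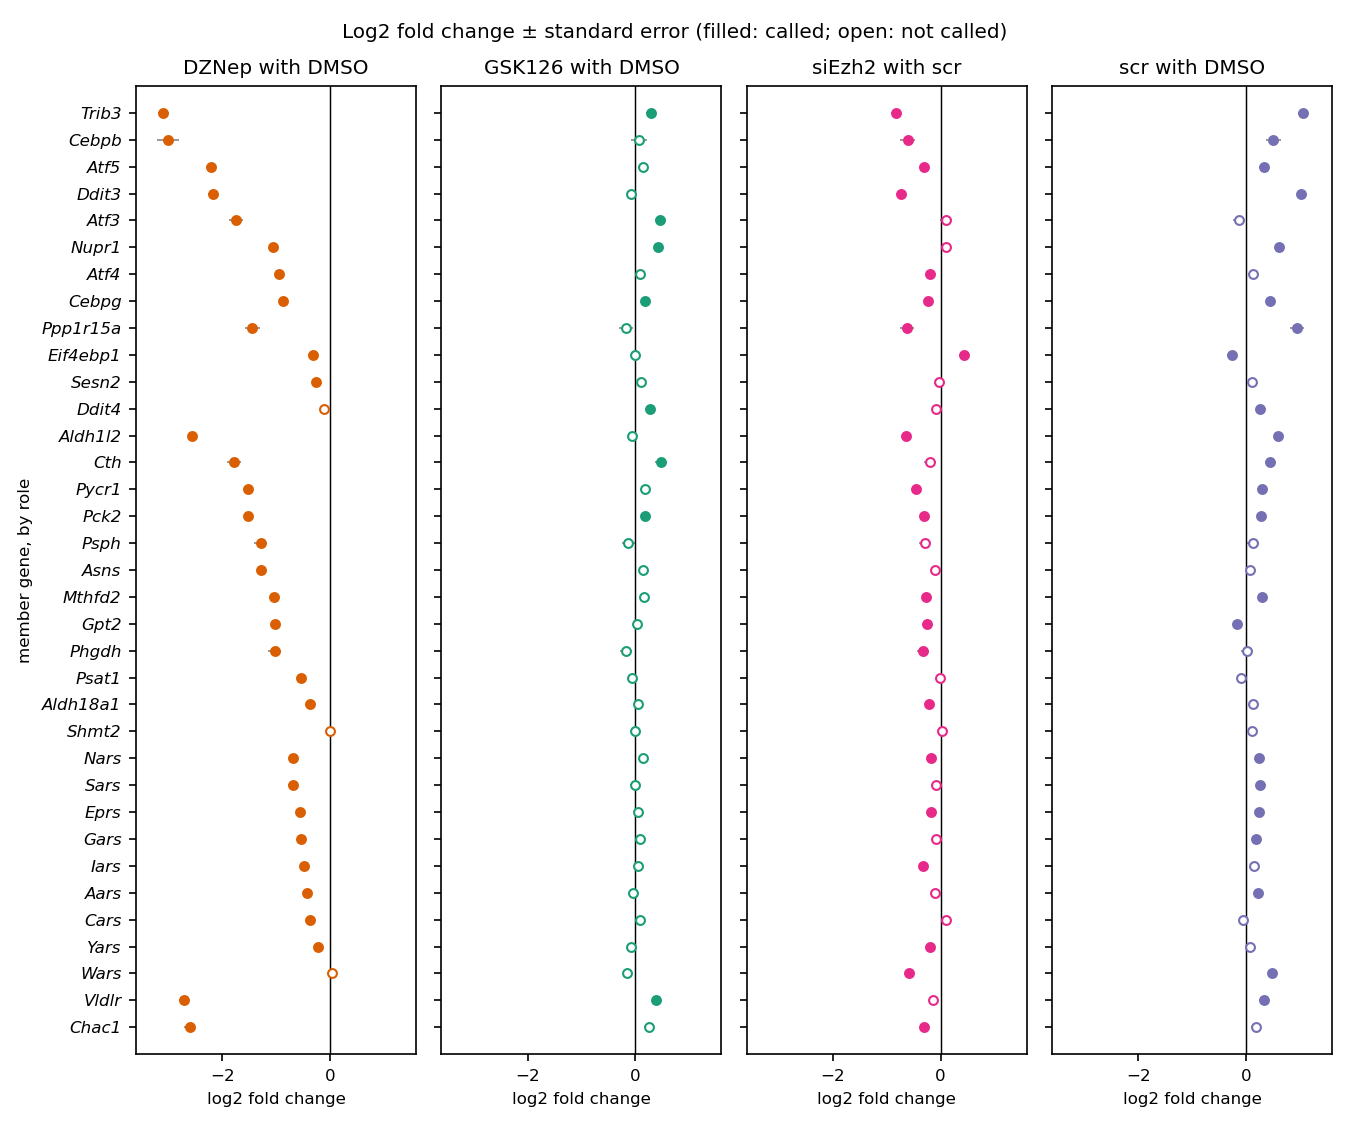
Log2 fold change ± SE of 35 members (rows, by role) in 4 comparisons (panels); filled points passed an adjusted p under 0.05 and open points did not. With DZNep 32 of 35 points are filled and left of 0, with GSK126 8 are filled and right of 0, with siEzh2 20 are filled left of 0, and in scr 20 are filled right of 0.

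The 2 control groups differed in this set. Against DMSO, scr libraries had 20 members higher and 2 lower, beside 12.2% of all genes higher and 13.6% lower, and the median log2 was 0.25. Of all called genes 47.3% were higher with TMM scaling and 58.5% with library totals. Transfection, vehicle and arm cannot be told apart here. Trib3 stood at 179, 175 and 156 CPM in scr, about double the 91.8, 70.5 and 82.8 CPM of DMSO (log2 1.06 ± 0.09, adjusted p = 2.89e-07). Ddit3 stood at 103, 95.5 and 89.3 CPM (log2 1.03 ± 0.08, adjusted p = 9.31e-08), and Ppp1r15a at 75.2, 79.2 and 67.9 CPM (log2 0.94 ± 0.13, adjusted p = 8.18e-05). All 3 genes lay above every library of the other 4 groups.

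Further members were also higher in scr than in DMSO. They included Nupr1 (log2 0.62 ± 0.07), Aldh1l2 (0.60 ± 0.07), Wars (0.49 ± 0.05) and Cebpg (0.44 ± 0.05). Of the synthetases 6 of 9 rose and of the synthesis genes 5 of 12, with Gpt2 lower (-0.17, adjusted p = 0.0387). Atf4 was not called (log2 0.14 ± 0.06, adjusted p = 0.117). Eif4ebp1 was the other lower gene (-0.26, adjusted p = 0.0357). Both lower calls were weak. With library totals in place of TMM 0 remained, and without single libraries 0 to 2, with 0 without DMSO replicate 3, scr replicate 2 or scr replicate 3 and 1 without DMSO replicate 1 or scr replicate 1. Among the increases Atf5, Cebpb, Ddit4, Gars and Sars were each lost without at least 1 library: Atf5 without DMSO replicate 2 or 3 or scr replicate 3 (adjusted p = 0.0537 to 0.0642), Cebpb without scr replicate 3 (0.0603), Ddit4 without DMSO replicate 2 (0.0679), Gars without DMSO replicate 2 (0.0516), and Sars without any 1 DMSO library or scr replicate 2 or 3 (0.073 to 0.143). The summed melanocyte markers were 19100 to 20190 CPM in scr, where 7 of 10 were called lower and 1 higher than in DMSO, 25530 to 25850 CPM in DMSO and 24330 to 25800 CPM with siEzh2. Their part in the result was not tested. The ATF6 and XBP1 branch was lower in scr for 10 of 15 genes, while further ATF4 targets had 13 of 22 higher and 1 lower. Of all genes 13.6% were lower in scr and 12.2% higher.

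With siEzh2 set against scr, 20 members fell and 1 rose, beside 12.9% of all genes lower and 13.2% higher. The median log2 was -0.20. The comparison shares its scr libraries with the previous one. Trib3 stood at 86.4, 104 and 96.6 CPM with siEzh2 against 179, 175 and 156 CPM in scr (log2 -0.83 ± 0.09, adjusted p = 3.73e-06). Aldh1l2 stood at 189, 210 and 195 CPM against 304, 326 and 293 CPM (log2 -0.64 ± 0.07, adjusted p = 2.37e-06). Wars stood at 120, 125 and 118 CPM against 193, 177 and 178 CPM (log2 -0.60 ± 0.05, adjusted p = 4.74e-08). For these 3 genes the siEzh2 libraries lay below all scr libraries and overlapped those of DMSO.

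Ddit3 fell from 95.8 ± 6.69 to 57.9 ± 8.12 CPM with siEzh2 (log2 -0.73 ± 0.08, adjusted p = 4.47e-06) and Ppp1r15a from 74.1 ± 5.75 to 48.2 ± 8.99 CPM (log2 -0.62 ± 0.13, adjusted p = 0.0022). Pycr1 fell from 26.3 ± 1.14 to 19.2 ± 0.361 CPM and Pck2 from 89.4 ± 1.41 to 72.0 ± 2.78 CPM. Eif4ebp1 was the gene that rose, from 115, 116 and 109 CPM to 133, 178 and 147 CPM (log2 0.43 ± 0.09, adjusted p = 0.00155), with siEzh2 replicate 2 apart from the others. Nupr1, at 82.1 ± 8.29 CPM with siEzh2 and 76.1 ± 1.14 CPM in scr, was not called (log2 0.11, adjusted p = 0.292). Cth gave log2 -0.20 (adjusted p = 0.181) and Vldlr -0.13 (adjusted p = 0.261).

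Atf4 was 744, 722 and 700 CPM in scr and 632, 651 and 617 CPM with siEzh2. The groups did not overlap and the call was marginal (log2 -0.19 ± 0.06, adjusted p = 0.0362). It was lost without any 1 of the 6 libraries (adjusted p = 0.0521 to 0.151). The calls of Atf5, Chac1, Eprs, Nars, Phgdh and Yars were also lost without 1 or more libraries. Atf5 (adjusted p = 0.0578 to 0.0835) was lost without scr replicate 2 or 3 or siEzh2 replicate 1 or 3. Chac1 (0.0606 to 0.0827) and Eprs (0.0902 to 0.152) were lost without scr replicate 1 or 2 or siEzh2 replicate 1 or 3. Nars (0.0714 to 0.187) was lost without scr replicate 2 or 3 or siEzh2 replicate 3, and Yars (0.0545 to 0.208) without scr replicate 1 or any 1 siEzh2 library. Phgdh (0.108 to 0.207) was lost without scr replicate 1 or 2 or any 1 siEzh2 library. The count of decreases was 13 without siEzh2 replicate 3 and at most 18 without any other library.

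The siEzh2 result differed with the control it was set against. With DMSO in place of scr, a comparison across arms that was added after the data were seen, siEzh2 had 3 members higher and 1 lower, with a median log2 of 0.03. The higher genes were Nupr1 (log2 0.72 ± 0.07, adjusted p = 1.42e-06), Ddit3 (0.30 ± 0.09, adjusted p = 0.0269) and Cebpg (0.21 ± 0.05, adjusted p = 0.0118), and the lower was Gpt2 (-0.43 ± 0.06, adjusted p = 7.67e-05). Of all genes 6.41% were higher and 7.76% lower. Gpt2 was also called lower against scr (log2 -0.26 ± 0.06, adjusted p = 0.00337). Among the group means, Trib3 ran from 9.50 CPM with DZNep through 81.7 in DMSO, 95.6 with siEzh2 and 100 with GSK126 to 170 CPM in scr. The siEzh2 and GSK126 libraries of Trib3 overlapped. Nupr1 ran from 24.0 CPM with DZNep through 49.7 in DMSO, 66.8 with GSK126 and 76.1 in scr to 82.1 CPM with siEzh2, and the scr and siEzh2 libraries overlapped.

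The effects of the treatments were compared by interaction contrasts. Each effect was taken against the control of its own arm. Subtracting the siEzh2 effect from that of DZNep gave a difference that was called negative for 29 members and positive for 1, beside 25.8% of all genes called negative and 25.3% positive. Vldlr differed by log2 -2.58 ± 0.12 (adjusted p = 1.6e-11) and Chac1 by -2.31 ± 0.13 (adjusted p = 1.74e-10), and Wars was positive (0.63 ± 0.07, adjusted p = 6.69e-07). The members not called were Ddit4, Shmt2, Aldh18a1, Iars and Yars. The Sesn2 difference (log2 -0.23, adjusted p = 0.0401) was lost without DMSO replicate 1, DZNep replicate 1 or 2, scr replicate 2 or 3, or siEzh2 replicate 2 (adjusted p = 0.0591 to 0.119).

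The siEzh2 effect minus the GSK126 effect was called negative for 20 members and positive for 1, beside 10.5% of all genes called negative and 10.1% positive, with a median log2 of -0.33. Trib3 had the largest difference among the members, at -1.13 ± 0.13 (adjusted p = 8.46e-06). When both were set against DMSO, which sets siEzh2 directly against GSK126, 6 members were called lower and 4 higher, beside 11.3% and 9.03% of all genes. Trib3 was then not called (adjusted p = 0.644).

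Some members share bases with a neighbour, and no source used here states the strand setting of the counting. Aldh1l2 shares 1056 of its 7503 exon bases with D10Wsu102e, and Cebpb shares 312 of 1504 with Tmem189. Psph shares 452 of 4329 bases with Cct6a and Atf5 shares 82 of 1993 with Il4i1. These neighbours lie on the opposite strand, and reads from the shared bases cannot be told apart. Aars shares 1326 of its 9282 exon bases with Exosc6 on the same strand. The GENCODE M21 identifier of Exosc6 has no row in the deposited counts, and whether its reads entered the Aars count was not tested.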

How the data were processed

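Whole-number read counts per gene were deposited by the authors for 15 libraries, without normalization. The submitters' processing notes name STAR, featureCounts and the build GRCm38. Their versions, the annotation and the strand setting: not given in the sources used here. Of 46078 identifiers 45229 matched GENCODE M21, and the other 849 held 0.0588% of counts.

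The quasi-likelihood test of edgeR 4.0.16 (R 4.3.3) was run with TMM scaling, the edgeR low-count filter and robust estimation. All libraries entered 1 fit with a term per group, and p-values were Benjamini-Hochberg adjusted over 15152 genes. Every adjusted p is from this fit unless another setting is named. Fold changes carry an SE, the log2 fold change over the square root of its F statistic, and CPM means carry SD of 3 libraries. There were 7 comparisons. The fit was tested on simulated data. Alternatives were DESeq2 1.42.0, other scaling, no filter, fewer groups, a replicate block and leaving out each library. DMSO as the control of siEzh2 was added after seeing the data.

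Replicates differed by more than sampling noise (chi-square per degree of freedom 5.81 to 38.1), so none were merged. The members and lists were chosen with earlier results of these data known. All members could be named. Values per library are given for Atf4, Ddit3, the 3 members with the smallest p in each role group with DZNep, and the 3 with the smallest p with GSK126 and with siEzh2. From other lists the 2 smallest p in each direction with DZNep may be named.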

Additional observations from a re-analysis of the deposited data

Results flagged for a closer look

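A difference between effects, by the interaction test of edgeR, was found for 21 of 35 members between siEzh2 (against scr) and GSK126 (against DMSO). Over all genes tested, 10.5% were called negative and 10.1% positive. On the log2 scale, siEzh2 effect minus GSK126 effect, the regulators gave -0.27 (Atf4), -0.46 (Atf5), -0.66 (Ddit3), -0.68 (Cebpb), -0.41 (Cebpg), -0.32 (Nupr1) and -1.13 (Trib3). Translation control genes gave 0.42 (Eif4ebp1) and -0.34 (Ddit4). Synthesis genes gave -0.42 (Mthfd2), -0.57 (Aldh1l2), -0.48 (Pck2), -0.29 (Gpt2), -0.68 (Cth), -0.65 (Pycr1) and -0.27 (Aldh18a1). The synthetases gave -0.45 (Wars), -0.33 (Nars) and -0.38 (Iars), and the remaining genes -0.55 (Chac1) and -0.52 (Vldlr). Of these 21 calls 13 held without any 1 of the 12 libraries. The 8 that did not were Aldh18a1, Atf4, Atf5, Cebpb, Ddit4, Eif4ebp1, Gpt2 and Nupr1. The interaction rests on both controls, and scr was called above DMSO for 20 members, beside 12.2% of all genes. With DMSO as the control of siEzh2 as well, 6 members were called lower and 4 higher.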

How the results depend on the processing

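The DZNep calls hardly moved. Over 420 values of single members under the alternatives, 419 kept their call, or the lack of one. In the comparison with GSK126 416 of 420 did. In GSK126 with DMSO, 26 of 420 values lost the call and 9 gained it. Increases numbered 5 when other groups were left out of the fit, and decreases 1 with no count filter. Over all genes, GSK126 gave 1084 increases and 839 decreases, against 721 and 410 without the other groups, and decreases numbered 459 without DMSO replicate 3 and 422, 452 and 469 without GSK126 replicates 1, 2 and 3. In scr with DMSO, decreases numbered 0 with library totals and 1 with the compared groups only. Leaving out each library gave 4 to 11 increases with GSK126, 13 (without siEzh2 replicate 3) to 18 decreases with siEzh2, 0 to 2 decreases in scr, and 0 (without scr replicate 3) to 1 positive difference for siEzh2 minus GSK126. With DMSO as the control of siEzh2 there were 3 increases and 1 decrease (over all genes 972 and 1176, against 2000 and 1953), and against GSK126 4 and 6. In that setting siEzh2 values were opposite in sign for 16 of 35 members, 8 of them called in neither fit and the others Atf5 (0.021), Ddit3 (0.30), Cebpg (0.21), Trib3 (0.23), Ppp1r15a (0.33), Mthfd2 (0.033), Nars (0.071) and Eprs (0.078). So were differences from GSK126 for 12 members, 5 of them called in neither fit and the others Ddit3 (0.37), Cebpg (0.035), Nupr1 (0.30), Ppp1r15a (0.49), Aldh1l2 (0.025), Wars (0.042) and Aars (0.16). The cause was not tested. Scaling moved the median of all genes by at most 0.035.

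Same-numbered replicates showed little common deviation (correlations of deviations -0.18 to 0.24, over 0.1 in 2 of 30 pairs, and best with its own number in 1 of 15 libraries). Whether they shared a culture or a batch was not tested. With the replicate number as a block, 6 members rose with GSK126 and 32 fell with DZNep, and no count of members moved by over 1.5 times. The calls of Pck2 and Trib3 with GSK126 and of Sesn2 between the DZNep and siEzh2 effects were lost, and Eprs was gained between the siEzh2 and GSK126 effects. For Stc2 no fit gave a value.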
